A study of Mus musculus with 16 samples.

Results

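The proteasome genes described here are the protein-coding mouse genes whose symbols run from Psma1 to Psmg4 and whose mean raw count over the 16 liver libraries was at least 10. The naming rule took 49 of the 46078 genes in the count table. Of these, 48 encode proteasome subunits, assembly chaperones or regulators, and 1, Psmc3ip, shares the letters but encodes a meiotic recombination factor and is given apart. Of the 54 symbols with matching letters, 4 were pseudogenes that are not protein coding and 1, Psmb11, the subunit of the thymus proteasome, was under the limit with a mean of 0.625 counts. The members just above the limit were Psmc3ip (13.8 counts), Psme2b (20.4 counts) and Psma8 (33.3 counts). All 49 passed the filter on low counts and were tested with the other genes, 15075 in all.

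Liver RNA was sequenced from male mice, with a strain labelled C56B6/J, that ate either control chow (CD) or, with 60% of calories from fat, a high-fat chow (HFD) for 16 weeks from young adulthood. Livers were taken from mice with free access to food (fed) or after 16 h without food (fast), which gave the groups CD fed, CD fast, HFD fed and HFD fast with 4 libraries each. No group carried a genetic change. The labels name the libraries as separate samples, so the spread within a group is taken as that between livers. Library totals lay between 41364448 and 57583153 counts, and the proteasome genes together took 0.303% to 0.383% of them. Levels are in CPM, the read count relative to a library total that was corrected with edgeR's TMM factors. In whole liver, fewer cells of a type and less RNA per cell cannot be told apart. The hepatocyte markers summed to between 71092 and 137714 CPM in every library, so the defining genes of liver were abundant throughout. On HFD these sums were lower in fasted (71092 to 102812 CPM) than in fed livers (109683 to 137714 CPM). On CD the ranges overlapped, at 86321 to 109807 CPM fasted and 105809 to 136999 CPM fed.

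The 26S proteasome degrades proteins that carry chains of ubiquitin. Its 20S core is a barrel of alpha and beta rings with the proteolytic sites on beta subunits inside, and its 19S cap binds ubiquitin, removes it, and unfolds and threads the substrate with a ring of ATPases. Interferon-inducible beta subunits can replace the constitutive catalytic ones to form the immunoproteasome, which favours peptides for class I antigen presentation, and in the fasted liver protein breakdown supplies amino acids. The 48 genes comprised 8 genes of the 20S alpha ring, 7 of the constitutive beta ring, 3 immunoproteasome beta subunits, 6 base ATPases, 3 other base subunits, 8 lid subunits, 3 chaperones of 19S assembly, 4 chaperones of 20S assembly, and 6 activators or inhibitors. The constitutive 20S and 19S subunits without the low Psma8 are 31 genes.

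Promoter sequence is shown first for the member with the strongest fasting call, Psmd4, and for Psmb9, which shares its upstream region with the antigen transporter gene Tap1 on the opposite strand. The RefSeq promoter table on build GRCm38.p6 matched 40 of the 48 genes. In the first sequence, 250 bases before the Psmd4 start (chr3:95042615-95042864, minus strand), capitals mark a CCAAT box read on the opposite strand and a match to the core of the interferon-stimulated response element (GAAA, any 2 bases, GAAA), also on the opposite strand. In the second, 250 bases before the Psmb9 start (chr17:34187331-34187580, minus strand), capitals mark a CCAAT box on the opposite strand. The interferon core letters are not in this Psmb9 window.
Psmd4: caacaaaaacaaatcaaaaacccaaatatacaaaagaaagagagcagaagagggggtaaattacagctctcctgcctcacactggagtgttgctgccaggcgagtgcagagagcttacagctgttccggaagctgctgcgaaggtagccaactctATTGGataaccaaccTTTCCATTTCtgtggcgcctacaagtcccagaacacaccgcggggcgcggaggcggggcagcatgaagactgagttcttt
Psmb9: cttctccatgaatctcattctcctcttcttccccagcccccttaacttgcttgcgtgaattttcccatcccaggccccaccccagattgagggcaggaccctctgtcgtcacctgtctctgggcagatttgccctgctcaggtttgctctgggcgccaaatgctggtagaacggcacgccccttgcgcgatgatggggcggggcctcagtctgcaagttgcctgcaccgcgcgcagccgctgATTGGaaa

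The antioxidant response element core, TGACNNNGC, is the kind of site bound by the transcription factors NFE2L1, which raises subunit gene transcription when proteasome capacity is short, and NFE2L2, which acts in oxidative stress. These letters, searched on both strands, were present in 6 of the 40 promoters (15%) and in 14.0% of the promoters of all 27025 genes in the table. The 6 matches are printed with up to 8 bases on each side, and capitals mark the match.
Psmd9: ctagccggTGACCCCGCccacttcc
Psmd12: tctGCTGTGTCAcatttgcc
Psmc6: agccagtaGCTAAGTCAggcattgc
Psmb5: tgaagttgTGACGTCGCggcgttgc
Psmb6: aaagagagTGACGGAGCgctttacg
Psme4: ctgcggctGCAGCGTCAccagaaga
On GRCm38.p6 the printed windows are chr5:123228151-123228175 (Psmd9, 31 bases before the start), chr11:107479278-107479297 (Psmd12, 247 before), chr14:45329589-45329613 (Psmc6, 227 before), chr14:54618026-54618050 (Psmb5, 47 before), chr11:70525340-70525364 (Psmb6, 9 before) and chr11:30771760-30771784 (Psme4, 7 before), each written 5′ to 3′ on the gene's strand. The Psmd12, Psmc6 and Psme4 matches are on the opposite strand. The interferon core letters were present in 5 of 40 promoters (12.5%, against 3.99% of all genes) and CCAAT in 13 of 40 (32.5%, against 41.1%). No match of one motif overlapped a match of another in any member. Among the 14 promoters of genes that rose with fasting in CD (below), 3 held TGACNNNGC, against 3 of the other 26. A match describes letters and is no evidence of binding.

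Subunit levels were compared with each other only per kilobase of merged exon. The catalytic gene Psmb5 was highest at 78.8 ± 10.2 CPM per kilobase (mean ± SD over the 16 libraries), followed by Psma6 of the alpha ring at 72.5 ± 6.70 and Psmb4, a beta subunit without a catalytic site, at 63.2 ± 10.7. The immunoproteasome genes lay lower, at 11.8 ± 1.70 for Psmb10, 6.5 ± 0.971 for Psmb8 and 3.52 ± 0.802 for Psmb9. Psma8, known as an alpha subunit of the testis, was lowest at 0.28 ± 0.103. The order was gradual, since the library ranges of 46 of the 47 neighbouring pairs overlapped, and only Psmg3 and Psme2b were separated. With the longest transcript as the length, 36 of the 48 genes moved by at most 5 ranks, and the top of the order changed to Psmb6 (107.9), Psmb4 (104.3) and Psma4 (88.3), with Psmb5 at rank 5.

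Within each role, the highest and lowest members per kilobase were far apart in some groups and close in others. Psma6 and Psma8 were the extremes of the alpha ring, and Psmb5 and Psmb1 (22.7 ± 2.32) those of the constitutive beta ring. Among the ATPases the extremes were Psmc1 (57.7 ± 8.98) and Psmc2 (17.4 ± 1.72). In the other base subunits they were the scaffolds Psmd2 (53.5 ± 5.43) and Psmd1 (17.2 ± 1.88). In the lid they were Psmd8 (38.9 ± 4.64) and Psmd11 (15.4 ± 1.70). Psmd9 (7.03 ± 2.0) and Psmd5 (4.31 ± 0.348) were the extremes of the 19S chaperones, and Psmg1 (10.9 ± 0.966) and Psmg3 (2.35 ± 0.243) those of the 20S chaperones. Psme2 of the PA28 activator (35.3 ± 2.96) and Psme2b (0.5 ± 0.15) bounded the activators and inhibitor. These extremes depend on the length used: with the longest transcript the highest alpha gene was Psma4, the beta ring was bounded by Psmb6 and Psmb7, and the lowest lid and 19S chaperone genes were Psmd14 and Psmd10.

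Fasted and fed livers of CD mice were compared first. Proteasome genes were mostly higher in the fasted livers: 16 of 48 rose and 1, Psmb10, fell at an adjusted p under 0.05 in edgeR's quasi-likelihood test, against 13.7% of all genes tested that were higher and 11.5% that were lower. The risers were 15 constitutive subunits and the chaperone Psmd9. The median log2 fold change was 0.24 over the 31 constitutive subunits and -0.01 over all genes tested. The libraries of the groups did not overlap, with CD fast higher, for 20 of the 48 genes, against 13.1% of all genes. Summed over the 17 constitutive 19S genes, the level was 1576 ± 37.7 CPM in CD fed and 1915 ± 107 CPM in CD fast livers, a difference of 21.5% (SD, n = 4). Summed over the 14 constitutive 20S genes it was 1229 ± 23.5 and 1381 ± 55.5 CPM, a difference of 12.4%.

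**Figure D1:**
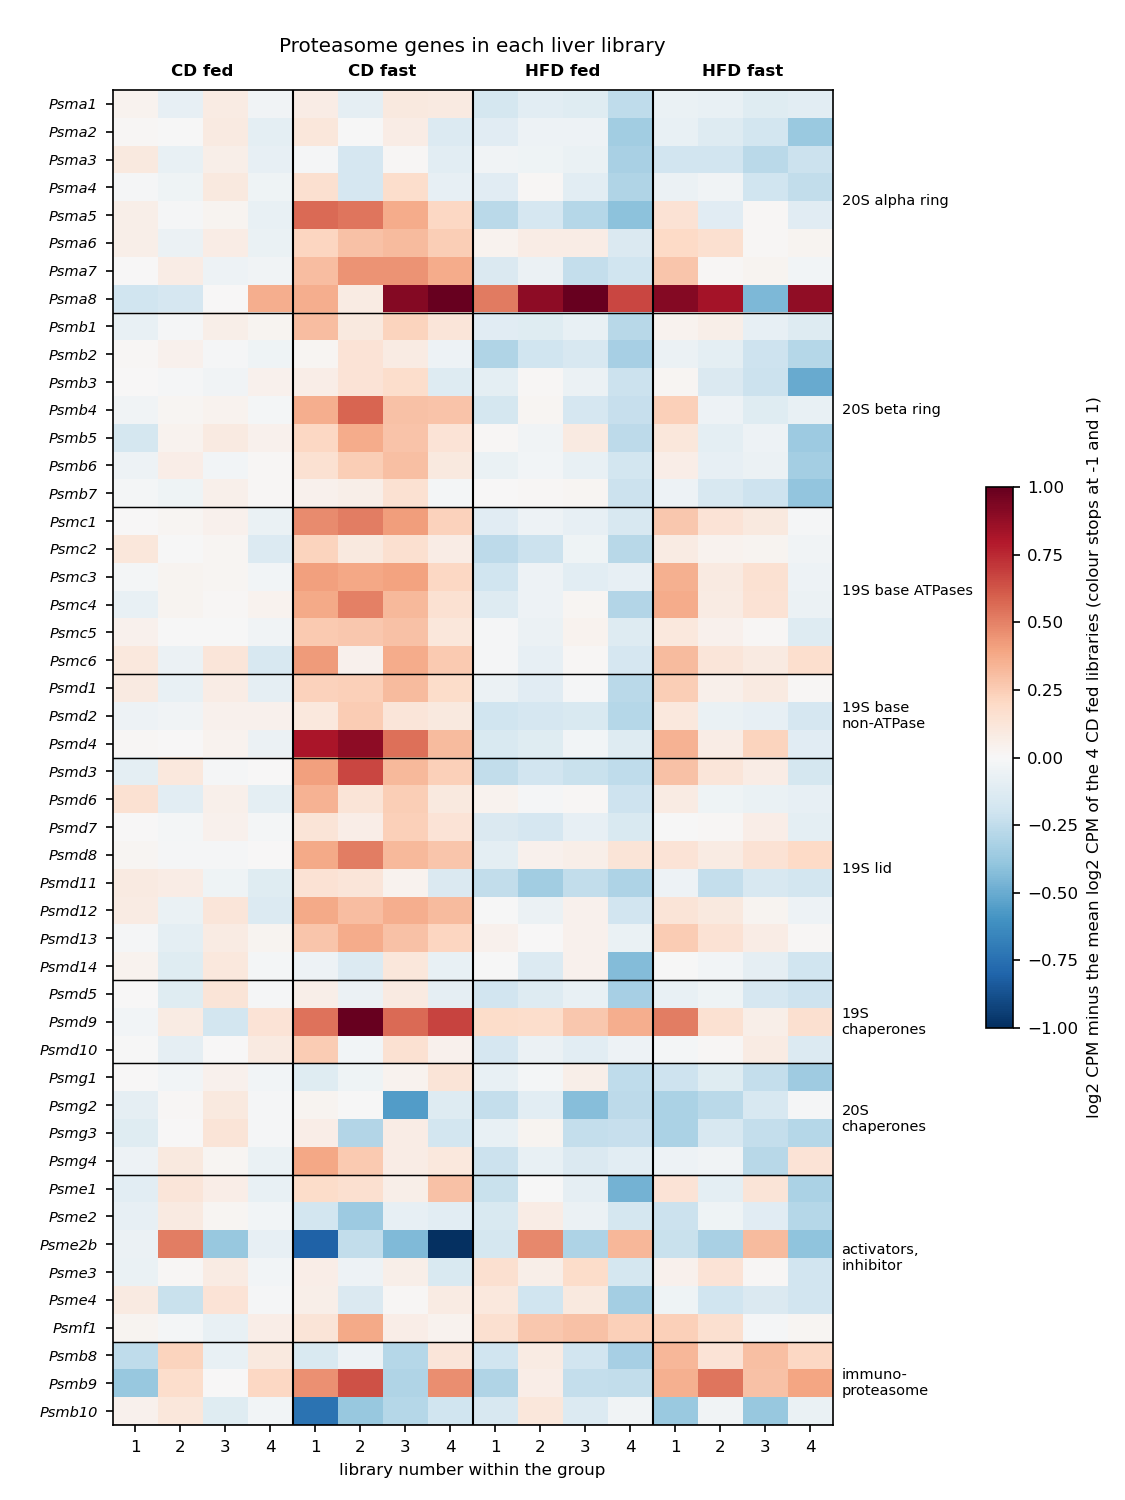
Level of each of the 48 proteasome genes (rows, by role) in each of the 16 liver libraries (columns, by group), as log2 CPM minus the mean log2 CPM of the 4 CD fed libraries. The CD fast columns are mostly red across the 20S and 19S rows, most strongly for Psmd4, Psma5 and Psmd9, while the HFD fed columns are mostly pale blue. Psma8 and Psme2b swing widely and rest on 16 to 60 and 10 to 35 raw counts per library.

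Of the subunit genes that passed, Psmd4 had the largest change (ENSMUSG00000005625, chr3:95032694-95042614, minus strand), a ubiquitin receptor of the cap. The CD fed livers had 96.5, 96.0, 97.8 and 91.8 CPM of it and the CD fast livers 169, 177, 139.5 and 119 CPM. On HFD, the fed livers had 86.0, 87.7, 93.9 and 87.3 CPM and the fasted livers 121, 101, 111 and 88.3 CPM. All 4 CD fast libraries were above all 4 CD fed libraries, and CD fast 3 and 4 were the lower ones of their group. With fasting in CD, Psmd4 rose by 58.1% (log2 fold change 0.66, SE 0.11, adjusted p = 0.000803). Psmd9, a chaperone of base assembly, was at 39.1, 42.2, 35.2 and 43.8 CPM in CD fed and at 58, 96.6, 59.0 and 63.8 CPM in CD fast livers. The groups did not overlap, and CD fast 2 stood far above the other 3. Psmd9 rose by 73.1% (log2 fold change 0.79, SE 0.14, adjusted p = 0.00126), and by 0.59 on the log2 scale without CD fast 2. The annotation of Psmd9 (chr5:123169413-123250131, plus strand) runs across Hpd on the opposite strand, a tyrosine catabolism enzyme at 1543 to 3257 CPM, which was itself higher with fasting in CD (log2 fold change 0.65, SE 0.17, adjusted p = 0.0136) and also highest in CD fast 2. On HFD, Hpd was at 2077 ± 228 CPM fed and 2171 ± 572 CPM fasted, against 1758 ± 246 and 2760 ± 418 CPM on CD (SD, n = 4). The part of Hpd reads in the Psmd9 counts was not tested in any comparison.

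Of the 9 base subunits, 7 rose, against 13.7% of all genes tested. Among the ATPases, which unfold substrates, 5 of 6 rose and Psmc2 did not pass (log2 fold change 0.14, SE 0.07, adjusted p = 0.156). Psmc1 was at 103, 104, 106 and 97.8 CPM in CD fed and at 142, 146, 137 and 120.5 CPM in CD fast livers, a rise of 33.2% (log2 fold change 0.41, SE 0.07, adjusted p = 0.000904). Psmc3, Psmc4, Psmc5 and Psmc6 rose by 17.9% to 27.9%. Psmc6 was the only riser whose CD fast libraries overlapped the CD fed ones (68.5 to 89.5 against 59.3 to 72.2 CPM). Of the other base subunits, Psmd4 and the scaffold Psmd1 rose, the latter by 18.2% (adjusted p = 0.0271), and the scaffold Psmd2 was 10.6% higher without passing the test (adjusted p = 0.141).

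In the lid, 4 of 8 genes rose, against 13.7% of all genes tested. Psmd8 was nearly the same in all CD fed livers, at 109, 107, 106 and 108 CPM, and was at 139.7, 153, 134 and 130.3 CPM in CD fast livers. All fasted libraries were above the fed ones, and Psmd8 rose by 29.8% (log2 fold change 0.38, SE 0.06, adjusted p = 0.000828). The lid scaffold genes Psmd3, Psmd12 and Psmd13 rose by 33.5%, 26.3% and 22.2%. Psmd14, the deubiquitinase that strips ubiquitin from the substrate, was at 48.3 ± 3.25 CPM in CD fed and 47.1 ± 3.59 CPM in CD fast livers (SD, n = 4) and did not pass (log2 fold change -0.04, SE 0.09, adjusted p = 0.823). Psmd11, a lid scaffold, was also little moved (log2 fold change 0.04, SE 0.07, adjusted p = 0.730).

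In the core, 4 of the 14 constitutive genes other than Psma8 rose, against 13.7% of all genes tested. In the alpha ring, which gates the barrel, Psma5, Psma6 and Psma7 rose, while Psma1, Psma2, Psma3 and Psma4 had log2 fold changes between -0.07 and 0.04. Psma5 was at 59.4, 56.7, 58.3 and 54.2 CPM in CD fed and at 84.7, 82.6, 73.8 and 66.1 CPM in CD fast livers, without overlap. It rose by 34.4% (log2 fold change 0.43, SE 0.08, adjusted p = 0.00214), and Psma7 rose by 31.2% (log2 fold change 0.39, SE 0.07, adjusted p = 0.00129). Of the 7 constitutive beta ring genes only Psmb4 passed, a share (14.3%) near that of all genes. It rose by 30.8% (log2 fold change 0.39, SE 0.09, adjusted p = 0.00585).

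The constitutive catalytic genes did not pass edgeR's test with fasting in CD. Psmb5, with chymotrypsin-like activity, was at 61.2, 70.9, 73.5 and 71.3 CPM in CD fed and 79.8, 89.1, 84.3 and 75.9 CPM in CD fast livers, and the groups did not overlap (log2 fold change 0.25, SE 0.10, adjusted p = 0.0789). Psmb6, with caspase-like activity, was at 104 ± 3.66 and 119 ± 7.43 CPM, likewise without overlap (log2 fold change 0.20, SE 0.08, adjusted p = 0.0751). Psmb7, with trypsin-like activity, was at 118 ± 3.28 and 123 ± 6.21 CPM (log2 fold change 0.06, SE 0.08, adjusted p = 0.619). The upper quartile scaling moved Psmb5 and Psmb6 past the threshold (adjusted p = 0.0464 and 0.0467), and DESeq2 called Psmb6.

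None of the 4 chaperones of 20S assembly and none of the 6 activators and inhibitors passed with fasting in CD, where 0 and 2 had an unadjusted p under 0.05 and DESeq2 and limma-voom called 0 of each. Total count scaling called Psme2 lower (log2 fold change -0.22, adjusted p = 0.0374). The genes of PA28, the interferon-inducible activator, differed in sign. Psme1 was at 67.0 ± 5.07 CPM in CD fed and 75.7 ± 5.09 CPM in CD fast livers (adjusted p = 0.264), and Psme2 was at 66.9 ± 3.45 and 59.0 ± 5.10 CPM (adjusted p = 0.110). Psme2b is a near copy of Psme2, so that reads of the pair may not be fully separated. The 20S chaperones Psmg1 to Psmg4 had log2 fold changes between -0.15 and 0.21, and the nuclear activator gene Psme3 one of -0.02.

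The count of risers with fasting in CD was 14 to 18 when a library was left out. The calls of Psmd4, Psmd9, Psmd8, Psmc1, Psma5, Psma7 and Psmb4 held in all 16 such fits. Those of Psmc4 (without CD fast 2, adjusted p = 0.0567), Psmd1 (4 fits, up to 0.0809 without CD fed 4) and Psmc6 (5 fits, up to 0.0964 without CD fed 4) did not. Psmd1 and Psmc6 were also not called with total count scaling (adjusted p = 0.0555 and 0.0755) or in a fit of only the groups compared. With no filter on low counts, Psmd1, Psmc6 and Psmc5 were not called.

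Fasting in HFD mice gave a smaller set of calls. Of the 48 genes 2 rose (4.17%), both of the immunoproteasome (Psmb8 and Psmb9), a share near the 4.78% higher over all genes tested. The count that fell was 0, against 4.07% lower over all genes. None of the 31 constitutive subunits passed, where 12 had an unadjusted p under 0.05, DESeq2 called 7 higher and limma-voom 0. Their median log2 fold change was 0.11, with 24 of 31 above 0, against 0.01 over all genes tested. The summed 19S genes were at 1449 ± 54.0 CPM in fed and 1637 ± 116 CPM in fasted livers (13.0% higher), and the summed 20S genes at 1133 ± 73.1 and 1158 ± 87.8 CPM (2.15% higher, SD, n = 4). The gap between diets in such sums depends on the scaling: under TMM all 48 genes together were 15.6% higher in fasted CD mice and 6.85% higher in fasted HFD mice, while their share of raw counts was 12.4% and 10.3% higher.

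The genes that led the response in CD showed smaller values here. Psmd4 had a log2 fold change of 0.25 (SE 0.11, adjusted p = 0.180), with HFD fast 1 high and HFD fast 4 within the fed range. Psmd9 was at 45.4, 45.2, 48.2 and 51.3 CPM in HFD fed and 57.0, 44.3, 41.6 and 44.5 CPM in HFD fast livers, which overlapped (log2 fold change -0.02, SE 0.14, adjusted p = 0.948). The nearest to the threshold among the constitutive subunits were Psma7 (log2 fold change 0.23, adjusted p = 0.0554), Psmc2 (0.22, adjusted p = 0.0558) and Psmd3 (0.32, adjusted p = 0.0585). All 6 ATPases lay above 0, between 0.05 and 0.25.

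**Figure D2:**
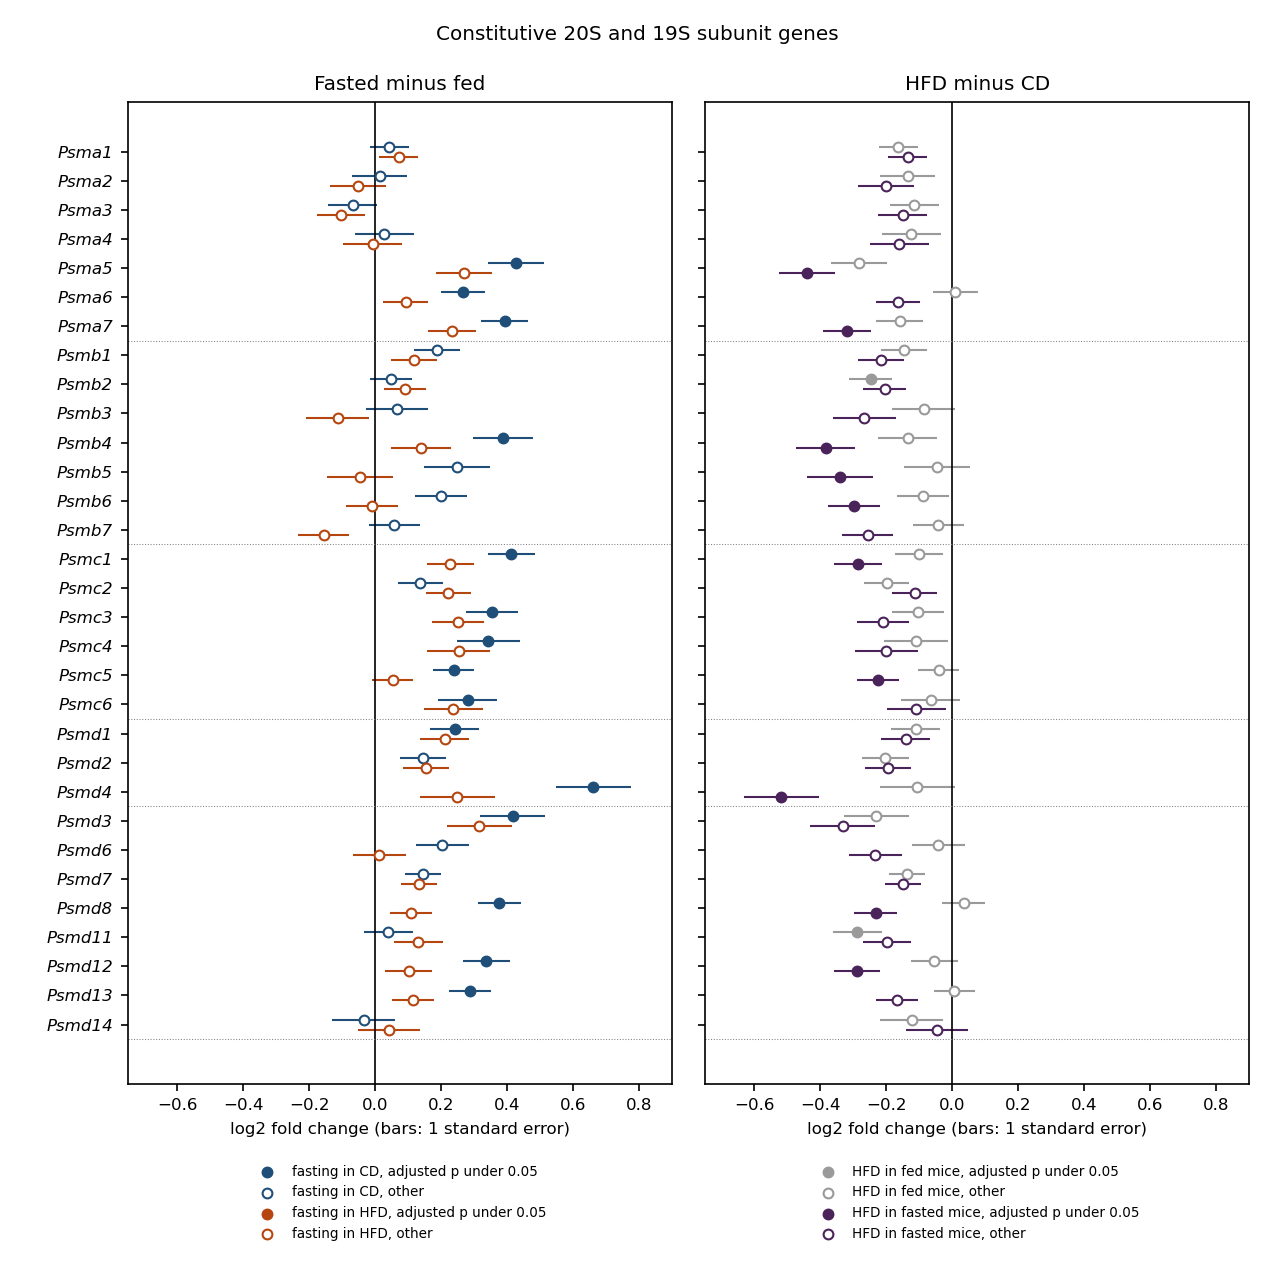
Log2 fold change of the 31 constitutive 20S and 19S subunit genes, with bars of 1 standard error. The left panel sets fasting in CD beside fasting in HFD, where 15 and 0 genes passed an adjusted p of 0.05 (filled points). The right panel sets HFD in fed mice beside HFD in fasted mice, where 2 and 10 genes passed and, in fasted mice, all 31 points lie below 0.

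Whether the fasting change differed between diets was tested by the diet by fasting interaction. It passed for 1 of the 48 genes, Psmd9, below 0, against 1.36% of all genes that were below and 1.23% that were above 0, and the unadjusted p was under 0.05 for 7. The Psmd9 interaction was -0.81 (SE 0.20, adjusted p = 0.0470) and was not called in 12 of the 16 fits that left out a library, with adjusted p up to 0.0982 without HFD fast 3. Among the 31 constitutive subunits 25 had an interaction below 0, the direction of a larger fasting change in CD, with a median of -0.11, yet 0 passed (3 with an unadjusted p under 0.05, 1 in DESeq2 and 0 in limma-voom). With total count scaling 18 of the 31 were below 0 and the median was -0.02. Psmd4 had an interaction of -0.41 (SE 0.16, adjusted p = 0.166) and Psmb8 one of 0.49 (SE 0.16, adjusted p = 0.107). For the members other than Psmd9, a difference between diets in the fasting change was not shown.

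The effect of diet was then measured within each feeding state. These comparisons reuse the libraries of the fasting comparisons, so their values are set side by side and are not independent. In fed mice, HFD livers had 2 of 48 proteasome genes lower, Psmd11 and Psmb2, a share (4.17%) near the 4.22% of all genes tested. The count of higher genes was 0, against 3.28% of all genes. Of the 48, 13 had an unadjusted p under 0.05 (DESeq2 called 6 lower and 1 higher, limma-voom 2 and 0). The median over the 31 constitutive subunits was -0.11, with 28 below 0. Psmd11 was at 111, 110.3, 102 and 96.3 CPM in CD fed and 88.3, 82.6, 88.5 and 84.6 CPM in HFD fed livers. It was lower in every HFD library and fell by 18.1% (log2 fold change -0.29, SE 0.07, adjusted p = 0.0281). Psmb2, a beta subunit without a catalytic site, was at 60.1, 61.4, 59.2 and 58 CPM against 48.5, 51.8, 53.3 and 47.4 CPM, again without overlap, and fell by 15.7% (log2 fold change -0.25, SE 0.06, adjusted p = 0.0311). Neither call held under total count scaling, and leaving out a library ended the call of Psmd11 in 6 of 16 fits (up to 0.0899 without CD fed 2) and of Psmb2 in 5 of 16 (up to 0.0928 without CD fed 2). With GC and length offsets the Psmb2 value was -0.14 (adjusted p = 0.202), and its call was also lost with no filter on low counts and, like that of Psmd11, without both HFD libraries numbered 4.

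Fasted mice gave more calls by diet. HFD fast livers had 11 of 48 proteasome genes lower than CD fast livers and 0 higher with TMM scaling, against 4.65% of all genes tested that were lower and 3.05% that were higher, and 28 had an unadjusted p under 0.05 (DESeq2 called 19 lower and 0 higher, limma-voom 11 and 0). The libraries did not overlap, with HFD fast lower, for 17 of the 48 genes, against 7.45% of all genes. All 31 constitutive subunits had a log2 fold change below 0, with a median of -0.21 against 0.01 over all genes tested. The 11 genes were 10 constitutive subunits (Psma5, Psma7, Psmb4, Psmb5, Psmb6, Psmc1, Psmc5, Psmd4, Psmd8 and Psmd12) and Psmd9. Of these, 9 had also risen with fasting in CD, a count that rests on the same 4 CD fast libraries, and Psmb5 and Psmb6 had not.

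Psma5 had the smallest p, with 63.2, 52.9, 57.6 and 52.7 CPM in HFD fast livers, all below the 66.1 to 84.7 CPM of the CD fast livers. It fell by 26.3% (log2 fold change -0.44, SE 0.08, adjusted p = 0.00833). Psmd4 fell by 30.2% (log2 fold change -0.52, SE 0.11, adjusted p = 0.0145), although HFD fast 1 (121 CPM) was above CD fast 4 (119 CPM). Psma7 fell by 19.8% (adjusted p = 0.0167), Psmb4 by 23.4% (adjusted p = 0.0199) and Psmd12 by 18.2% (adjusted p = 0.0236). Psmd9 fell by 32.4% (log2 fold change -0.56, SE 0.14, adjusted p = 0.0275), a value that was -0.36 and not called without CD fast 2 (adjusted p = 0.0580), with the call also lost without HFD fast 2, 3 or 4 (up to 0.0836).

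In the catalytic core, Psmb5 was at 74.5, 64.7, 66.8 and 53.8 CPM in HFD fast livers, below the 75.9 to 89.1 CPM of the CD fast livers, with HFD fast 4 lowest and HFD fast 1 close to the CD fast range. It fell by 21.1% (log2 fold change -0.34, SE 0.10, adjusted p = 0.0481), a call lost in 12 of 16 fits with a library omitted (adjusted p up to 0.135 without HFD fast 4). Psmb6 was at 108, 97.7, 99.3 and 82.0 CPM, below the 111 to 127 CPM of CD fast livers, and fell by 18.6% (log2 fold change -0.30, SE 0.08, adjusted p = 0.0321), a call lost in 5 such fits (up to 0.0886 without HFD fast 4). The calls of Psmd8 and Psmc5 were lost in 12 and 11 of them, and that of Psmd8 also with a block on the replicate number. Psmb7 was at 103 ± 9.95 CPM in HFD fast and 123 ± 6.21 CPM in CD fast livers without overlap, and did not pass in edgeR (log2 fold change -0.26, SE 0.08, adjusted p = 0.0536), whereas 4 of 11 alternatives called it, among them DESeq2 (adjusted p = 0.0124) and the GC and length offsets (0.0282).

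The number of lower genes depended on the libraries and the scaling. It was 2 without HFD fast 3 or HFD fast 4, 4 without CD fast 2, 5 without CD fast 1, and 7 without CD fast 3 or HFD fast 2, and total count scaling left 2 lower and called Psmb8 higher. In a fit of only the fasted groups 0 of the 11 passed (adjusted p = 0.0646 to 0.137), where 20 members were lower at an unadjusted p under 0.05 and 90 genes passed over the whole table. The calls of Rps27a and Gbp2 in this comparison, given further on, were also lost there. Total count scaling also moved the median of all genes from 0.01 to 0.17, and the constitutive median minus that of all genes was -0.22 with TMM and -0.23 with total counts, while 24 of the 31 stayed below 0. The TMM factors moved with diet, at 0.929 to 0.984 in the CD libraries and 1.0 to 1.13 in the HFD libraries, with HFD fast 4 highest. HFD fed 4 and HFD fast 4 had the lowest summed 20S levels of their groups (1028 and 1058 CPM), and without both of them 2 genes were lower. Summed hepatocyte markers were at 86320.9 to 109807 CPM in CD fast and 71091.8 to 102812 CPM in HFD fast livers. The part of either in the lower values was not tested.

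**Figure D3:**
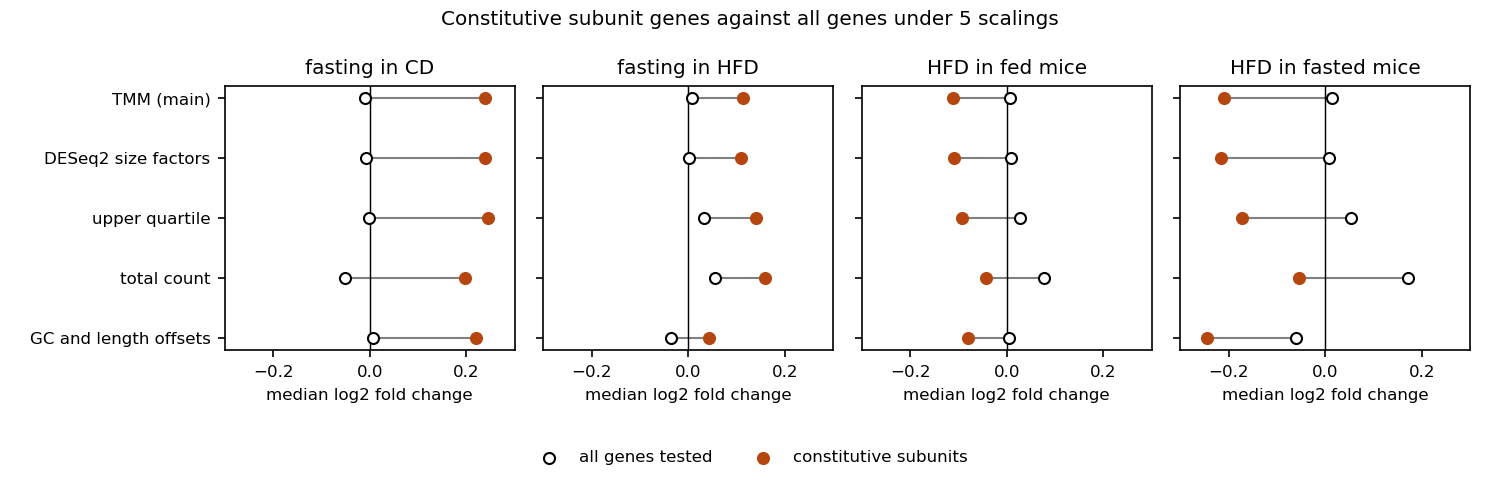
Median log2 fold change of the 31 constitutive subunit genes (filled) and of all 15075 genes tested (open) under 5 scalings, in each pairwise comparison. Both medians shift together with total counts, to -0.06 and 0.17 for HFD in fasted mice, and the distance between them stays near that under TMM.

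Of the 3 immunoproteasome genes, Psmb8 and Psmb9 rose with fasting in HFD and Psmb10 fell with fasting in CD, while the interaction passed for none (adjusted p = 0.107, 0.607 and 0.438, 1 with an unadjusted p under 0.05, 0 in DESeq2). Psmb8, which replaces Psmb5, measured 18.3, 25.4, 20.7 and 23.3 CPM in fed and 19.6, 21, 17.9 and 23.7 CPM in fasted livers of CD mice. In HFD mice it measured 19, 23.1, 19.1 and 17.3 CPM fed and 27.5, 23.9, 26.8 and 25.1 CPM fasted. The HFD fast libraries were all above the HFD fed ones, and the CD groups overlapped. Psmb8 rose by 31.5% with fasting in HFD (log2 fold change 0.40, SE 0.11, adjusted p = 0.0405) and had a log2 fold change of -0.10 with fasting in CD (SE 0.11, adjusted p = 0.573). Between diets in fasted mice, all HFD libraries of Psmb8 were above all CD libraries without passing the test (log2 fold change 0.33, SE 0.11, adjusted p = 0.0822), and it passed with total count scaling (0.49, adjusted p = 0.0152).

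Psmb9, which replaces Psmb6, measured 8.79, 12.9, 11.5 and 13.2 CPM in fed and 15.7, 17.8, 9.31 and 15.8 CPM in fasted livers of CD mice. In HFD mice it measured 9.32, 12.0, 9.70 and 9.66 CPM fed and 14.6, 16.6, 14.0 and 15.1 CPM fasted. CD fast 3 was as low as the fed livers, whereas all HFD fast libraries were above all HFD fed libraries. Psmb9 rose by 48.5% with fasting in HFD (log2 fold change 0.57, SE 0.17, adjusted p = 0.0461). With fasting in CD it did not pass (log2 fold change 0.34, SE 0.17, adjusted p = 0.157), and it did without CD fast 3 (log2 fold change 0.50, adjusted p = 0.0109). Psmb9 overlaps the 5′ end of Tap1 head to head (see the shared upstream region above), and Tap1 was higher with fasting in both diets (log2 fold change 0.58 in CD and 0.61 in HFD, adjusted p = 0.00577 and 0.0133).

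Psmb10, which replaces Psmb7, went the other way in CD. It was at 23.1, 24.2, 20.6 and 22 CPM in CD fed and 13.4, 17.3, 18.4 and 19.5 CPM in CD fast livers, with every fasted library lower, and fell by 23.5% (log2 fold change -0.39, SE 0.11, adjusted p = 0.0223). In HFD livers the groups overlapped, at 21.7 ± 1.92 CPM fed and 19.5 ± 2.50 CPM fasted (adjusted p = 0.421). The fall was not called without CD fed 1, CD fed 2 or CD fast 1 (adjusted p up to 0.0623). The rises of Psmb8 and Psmb9 in HFD were lost in 7 and 12 of the 16 fits with a library omitted, and the highest adjusted p was 0.109 and 0.128, both without HFD fed 1. Both were also lost with the GC and length offsets (0.0804 and 0.0594), with no filter on low counts and without both HFD libraries numbered 4, and limma-voom did not call Psmb9 (0.0584).

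As a share of the constitutive partner, per kilobase, Psmb8 came to 8.42% ± 0.894 of Psmb5 in fed and 6.69% ± 1.13 in fasted CD mice (SD, n = 4). In HFD mice it came to 7.81% ± 0.96 fed and 10.7% ± 1.22 fasted. The HFD fast values, 9.80% to 12.4%, were above every library of the other groups. Psmb9 was 8.06% ± 1.19 of Psmb6 in HFD fast and 5.33% ± 0.538 in HFD fed livers, without overlap, and overlapped between CD fast (6.36% ± 1.76) and CD fed (5.71% ± 0.856). Psmb10 was 28.1% ± 4.69 of Psmb7 in CD fast and 38.3% ± 3.72 in CD fed livers, without overlap. In HFD mice the groups overlapped, at 34.0% to 43.4% fed and 30.6% to 47.9% fasted. These ratios are descriptions and were not tested.

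**Figure D4:**
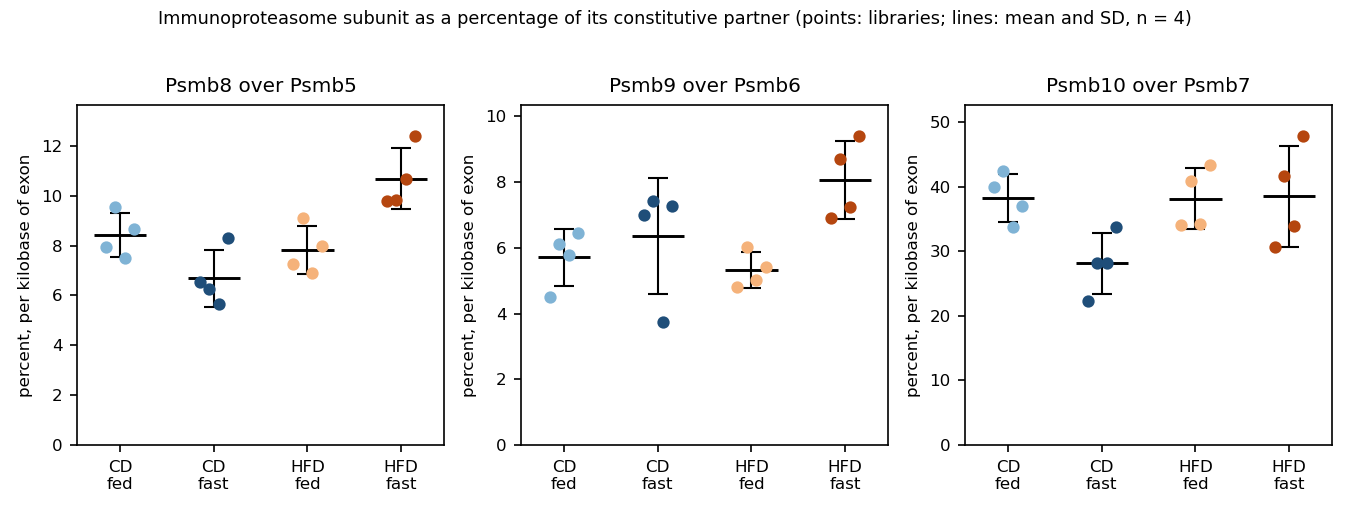
Level of each immunoproteasome subunit gene as a percentage of its constitutive partner, per kilobase of exon, in each library (points) with the group mean and SD (n = 4). The HFD fast points of Psmb8 over Psmb5 (9.80% to 12.4%) lie above all others, and the CD fast points of Psmb10 over Psmb7 (22.3% to 33.8%) lie below the CD fed points.

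**Figure D5:**
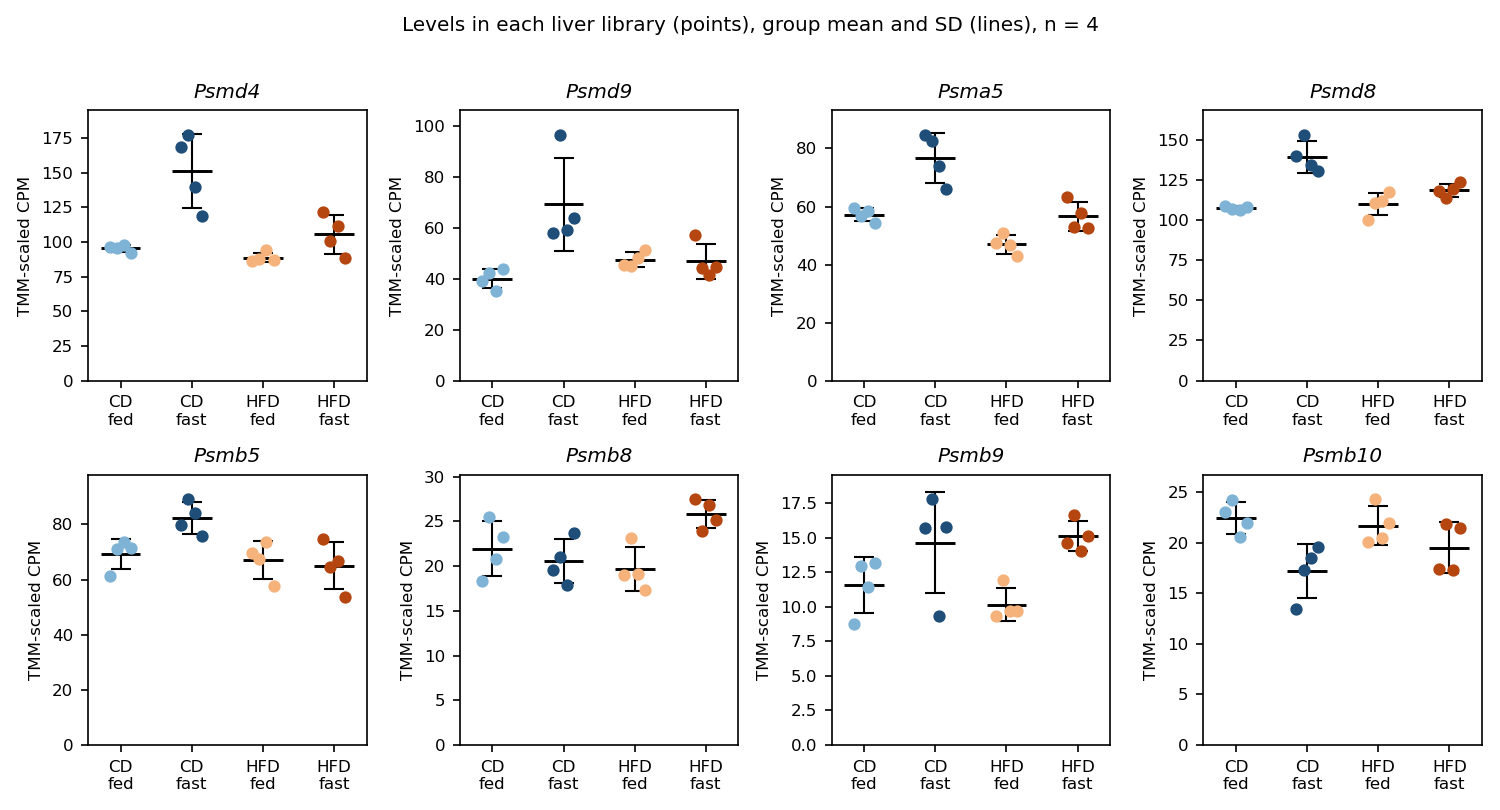
CPM of 8 proteasome genes in each library (points) with group mean and SD (lines, n = 4). Psmd4, Psma5 and Psmd8 are highest in CD fast livers, Psmd9 has 1 high CD fast library at 96.6 CPM, and Psmb8 is highest in HFD fast livers.

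Immunoproteasome genes are strongly expressed in leukocytes, so marker levels are set beside them. Summed Kupffer cell markers (7 genes) ranged from 197 to 377 CPM fed and 129 to 222 CPM fasted in CD mice, and from 216 to 294 CPM fed and 170.2 to 283 CPM fasted in HFD mice. Of the 7, 3 (Adgre1, Clec4f and Csf1r) fell with fasting in CD, against 11.5% of all genes tested. Class II antigen presentation genes ranged from 98.8 to 233, 84.2 to 119.5, 89.8 to 186 and 128 to 259 CPM in the same order. T and NK cell markers stayed between 2.46 and 5.35 CPM in all libraries. Of the 6 tested, 1 (Cd4) was lower with fasting in CD and with HFD in fed mice, against 11.5% and 4.22% of all genes. All 6 were below 0 in the first comparison (median -0.11). In the second, 3 were above and 3 below 0 (median -0.03). The pan-leukocyte gene Ptprc ranged from 7.10 to 16.3, 7.01 to 7.88, 7.80 to 13.1 and 7.91 to 20.4 CPM in the order above. Summed B cell markers (4 genes) ranged from 1.49 to 5.94, 1.74 to 4.62, 0.915 to 2.55 and 2.52 to 4.86 CPM in that order. With fasting in HFD, where Psmb8 and Psmb9 rose, all 4 had a log2 fold change above 0 (median 0.74), without passing the test. All 4 class II genes were above 0 there too (median 0.41), and Ptprc was at 0.50. Of the T and NK cell markers 4 were above and 2 below 0 (median 0.31). Of the Kupffer cell markers 3 were above and 4 below 0 (median -0.13). None of these passed in that comparison. All 6 hepatocyte markers were below 0 in that comparison (median -0.55), and 1 passed, against 4.07% of all genes tested that were lower. Cholangiocyte markers (3 genes) stayed between 1.29 and 2.92 CPM outside HFD fed 4, which had 14.3 CPM. Endothelial markers ranged from 192 to 218 CPM in CD fed, 142 to 186 CPM in CD fast, 167 to 200 CPM in HFD fed and 170.6 to 231 CPM in HFD fast livers. Pecam1 and Stab2 were lower with fasting in CD and higher with HFD in fasted mice. Stellate markers ranged from 178 to 229, 110.5 to 186, 192 to 298 and 202 to 294 CPM in these groups. Of the 4 stellate genes, 1 was lower with fasting in CD and 1 higher with HFD in fasted mice. Over all genes tested, 11.5% were lower in the first of these comparisons and 3.05% higher in the second. No marker gene was at or under 3 counts in all libraries. The part of cell composition in the proteasome values was not tested. Psmb8 and Psmb10 are crossed by antisense genes, Gm20496 and Gm16156, which reached at most 0.0512 and 0.179 CPM.

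Genes of interferon signalling and antigen presentation, where the immunoproteasome acts, gave 6 of 13 higher and 0 lower with fasting in HFD, against 4.78% and 4.07% of all genes tested. Ifit1, an interferon-induced RNA-binding protein, rose by 1.60 on the log2 scale (SE 0.30, adjusted p = 0.00596), and Tap1, Gbp2, H2-D1 and Irf7 were among the others that rose. The calls of Tap1, Gbp2 and H2-D1 were lost in 1, 4 and 4 of 16 fits with a library omitted. Their highest adjusted p was 0.0520, 0.0662 and 0.0855, each without HFD fed 1. With fasting in CD, 2 of the 13 rose and 1 fell, shares near those of all genes (13.7% and 11.5%): Tap1 and the class I transactivator gene Nlrc5 (log2 fold change 0.79, SE 0.15, adjusted p = 0.00137) rose and the peptide-trimming enzyme gene Erap1 fell (-0.38, adjusted p = 0.0165). The Erap1 call was lost in 2 of 16 fits with a library omitted (up to 0.0553 without CD fast 2). With GC and length offsets Erap1 was at -0.27 and also not called (adjusted p = 0.0938). Gbp2, an interferon-induced GTPase, was higher in HFD fast than in CD fast livers (log2 fold change 1.25, SE 0.26, adjusted p = 0.0109) and passed the interaction (1.51, SE 0.36, adjusted p = 0.0395), a call lost in 12 of 16 fits with a library omitted (up to 0.0810 without HFD fed 3) and in limma-voom (0.0513). In fed mice, H2-K1 was lower with HFD (log2 fold change -0.36, adjusted p = 0.0362), a call lost in 7 of 16 fits with a library omitted (up to 0.119 without CD fed 2) and with total count scaling (0.0505) or GC and length offsets (0.0535).

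The remaining machinery was read from the same fit. Of 7 proteasome components outside the naming rule, 2 rose with fasting in CD, against 13.7% of all genes tested. These were the scaffold gene Ecpas (log2 fold change 0.29, adjusted p = 0.0103) and the ubiquitin receptor gene Adrm1 (0.27, adjusted p = 0.0429). The Adrm1 call was lost in 11 of 16 fits with a library omitted (up to 0.119 without CD fast 2). With HFD in fed mice 1 of the 7, Txnl1, fell (-0.34, adjusted p = 0.0244), against 4.22% of all genes. The Txnl1 call was lost in 4 of 16 fits with a library omitted (up to 0.0658 without CD fed 1). It was also lost with total count scaling (0.0761), in a fit of only the groups compared and without both HFD libraries numbered 4. The 20S maturation factor gene Pomp and the deubiquitinase genes Uchl5 and Usp14 did not pass in any comparison. Of 14 genes of ubiquitin and substrate delivery, 4 rose with fasting in CD, against 13.7% of all genes tested, among them Ubqln2, a shuttle to the proteasome (log2 fold change 0.48), and Nploc4 and Ufd1, cofactors of the unfoldase VCP (0.34 and 0.30). The ubiquitin-activating enzyme gene Uba1 fell (-0.21, adjusted p = 0.0370). Rad23b rose with fasting in HFD (0.44, SE 0.07, adjusted p = 0.00263). With HFD in fasted mice 5 of the 14 were lower, against 4.65% of all genes, among them Rps27a, a ubiquitin fusion gene, at 227, 173, 188 and 182 CPM in CD fast and 137, 132, 132 and 133 CPM in HFD fast livers, without overlap (log2 fold change -0.53, SE 0.08, adjusted p = 0.00413).

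Of 7 regulators of subunit genes, 1 rose and 1 fell with fasting in CD, a share near the 13.7% higher and 11.5% lower over all genes, and none passed in the other comparisons. Nfe2l1, which activates proteasome genes, was at 146, 158, 158 and 161 CPM in CD fed and 191, 219.6, 218 and 240.4 CPM in CD fast livers, and rose (log2 fold change 0.48, SE 0.14, adjusted p = 0.0202). This call was lost in 2 of 16 fits with a library omitted (up to 0.0589 without CD fast 4). Nfe2l2, the regulator of antioxidant genes, was at 88.1, 80.7, 90.3 and 85.2 CPM against 76.0, 47.0, 67.5 and 65.3 CPM, and fell (log2 fold change -0.43, SE 0.11, adjusted p = 0.00993). Neither group pair overlapped. Of the muscle-atrophy ubiquitin ligases, Fbxo32 did not pass in any comparison and Trim63 was under the filter on low counts.

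The members with few reads gave wide errors. Psma8 (16 to 60 raw counts per library) had a log2 fold change of 0.81 with fasting in CD (SE 0.32, adjusted p = 0.0800), and Psme2b one of -0.64 (SE 0.28, adjusted p = 0.103). Psmc3ip had means of 0.259 ± 0.127 CPM fed and 0.258 ± 0.0217 CPM fasted on CD, and 0.249 ± 0.0891 CPM fed and 0.375 ± 0.122 CPM fasted on HFD (SD, n = 4), and did not pass in any comparison. In these libraries 3 counts correspond to 0.0536 to 0.0767 CPM, so the 3 genes were above that floor on average. Psmf1, an inhibitor of the core, did not pass with HFD in fed mice (28 ± 1.23 CPM on CD and 33.0 ± 1.26 CPM on HFD without overlap, log2 fold change 0.24, adjusted p = 0.0814). The annotation of 23 of the 48 genes overlaps another gene.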

How the data were processed

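Polyadenylated RNA of 16 mouse livers was measured by RNA-seq. Per the study's methods and the submitters' processing notes, the authors made libraries with the NEBNext Ultra II kit, read both fragment ends, aligned with TopHat2 2.0.11 (first-strand setting) to Ensembl GRCm38 and ran featureCounts. The deposited values are raw counts per Ensembl gene and were not normalized. The strand setting of the counting step is not given in the sources used here, so overlapping and antisense genes are uncertain.

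The analysis used edgeR 4.0.16 under R 4.3.3. All 16 libraries entered a single fit with a coefficient for each group, over the 15075 genes that filterByExpr kept, with TMM scaling. The residual degrees of freedom were 12 and the common CV was 19.2%. Benjamini-Hochberg adjustment of the quasi-likelihood p-values covered all genes tested, at a threshold of 0.05. Every adjusted p given without another tool's name is from this test. Library totals of 41364448 to 57583153 set the precision, and floors cover counting error only. Symbols, positions and exon lengths are those of GENCODE M21 on GRCm38, which named 45143 of 46078 genes. Promoter windows are from RefSeq. Alternatives were DESeq2 1.42.0, limma-voom (limma 3.58.1), other scalings and filters, offsets for GC content and length, a block on the replicate number, fits of only the groups compared, stricter limits and the omission of each library. The procedures were tested on simulated data.

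The members and lists were chosen with earlier results of these data known. Genes named with values were the catalytic subunits and PA28 genes, up to 5 members of each sign per comparison by smallest p, the extremes of each role by level, and up to 4 called genes per list and comparison. Others were named after their values were seen. Results of some listed genes are not reported here.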

Additional observations from a re-analysis of the deposited data

Results flagged for a closer look

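Among the 26 members named by the rule, 104 groups of 4 libraries were examined for a library far from the other 3 in its group, and 5 were found, where chance gives about 1 in 20 groups. Psmb7 had its lowest HFD fed value in HFD fed 4 at 101.3 CPM, against 118 to 119.6 CPM in the others. Psmb9 had its highest HFD fed value in HFD fed 2 at 12.0 CPM, against 9.32 to 9.70 CPM. Psma7 had its highest HFD fast value in HFD fast 1 at 101.1 CPM, against 81.9 to 85.1 CPM. Psmc3 had its lowest CD fast value in CD fast 4 at 123 CPM, against 139 to 142 CPM. Psmd9 had its highest CD fast value in CD fast 2 at 96.6 CPM, against 58 to 63.8 CPM, and Hpd, on the opposite strand, was highest in the same library. The fasting change of Psmd9 differed between diets by the interaction test (-0.81, adjusted p = 0.0470 in edgeR), with a rise in CD and a value near 0 in HFD.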

How the results depend on the processing

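Among 59 called changes of members and listed genes, 1338 of 1650 values under alternatives stayed past the threshold, 312 did not, and 0 turned direction. Of 35 uncalled changes, 17 alternative values passed. The count of members higher with fasting in CD (16) was 14 to 18 without single libraries and 2 with an absolute log2 change of at least 0.5. The count lower with HFD in fasted mice (11) was 2 to 16 without single libraries, 19 with DESeq2, 2 with total count scaling, 6 with no filter on low counts, 0 in a fit of only the groups compared, 1 at an adjusted p under 0.01, 2 with an absolute log2 change of at least 0.5, and 2 when both HFD libraries numbered 4 were omitted, an alternative chosen after seeing the data. The count higher with fasting in HFD (2) was 0 to 4 without single libraries, 9 with DESeq2 or upper quartile scaling, 10 with total count scaling, 1 with limma-voom or a log2 limit, and 0 with no filter, with GC and length offsets or at an adjusted p under 0.01. The count lower with HFD in fed mice (2) was 0 to 3 without single libraries, 6 with DESeq2, 4 in a fit of only the groups compared, 1 with no filter or GC and length offsets, and 0 with total count scaling, either stricter limit, or both HFD libraries numbered 4 omitted. The interaction count (1) was 0 to 1 without single libraries, 2 with DESeq2 or GC and length offsets, and 0 with total count or upper quartile scaling, no filter, an adjusted p under 0.01, or both HFD libraries numbered 4 omitted. The cause was not tested. Total count scaling changed the share of higher genes among all calls from 39.6% to 88.1% for HFD in fasted mice, from 43.8% to 68.8% for HFD in fed mice, from 54.0% to 67.6% for fasting in HFD, from 54.4% to 44.3% for fasting in CD, and from 47.4% to 69.5% for the interaction. Same-numbered libraries of different groups had correlations of -0.24 to 0.66 (24 pairs, 8 over 0.1). HFD fed 4 and HFD fast 4 gave the highest value, and 3 of the 4 pairs within HFD were over 0.1. The pairs within CD lay between 0.05 and 0.11. Differently numbered libraries were not compared in this way, so the check cannot decide whether a number marks a shared batch. With the replicate number as a block the counts were 18 for fasting in CD, 15 for HFD in fasted mice, 7 for fasting in HFD, 0 for the interaction and 3 for HFD in fed mice.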
